A study of Oryza sativa with 9 samples.

Results

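Plants read the colour, strength and length of light through receptor proteins. Phytochromes absorb red and far-red light and switch between an inactive and an active form, and cryptochromes absorb blue light. In darkness the E3 ubiquitin ligase COP1 marks light-promoting transcription factors for destruction, and active photoreceptors restrain it. The phytochrome-interacting factors, bHLH transcription factors called PIL (PIF-like) in rice, favour growth in darkness and shade, and in Arabidopsis active phytochrome sends them to degradation. In rice leaves these receptors set the photoperiod response of flowering as well as leaf greening and plant height.

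The 10 genes described here are 3 phytochrome genes (PHYA, PHYB and PHYC), 3 cryptochrome genes (CRY1a, CRY1b and CRY2), COP1 and 3 PIF-like genes (PIL13, PIL14 and PIL15), chosen by their RAP identifiers from the 37858 genes of the expression table. All 10 were found and all passed the filter on low values. Their transcripts were measured by RNA sequencing in leaves of rice (Oryza sativa) at 85 days after sowing, in a mutant, in an overexpression genotype (OE) and in the wild type (WT), with 3 libraries per genotype and 9 in all. The labels give neither the kind of mutation, the promoter of the overexpression construct, the number of transgenic lines nor the hour of harvest. Whether each library came from its own plant is not given either. The p-values therefore rest on the scatter among these libraries, which could be technical. Mutant titles follow another pattern than those of OE and WT.

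Levels are given in FPKM, the authors' read counts scaled to gene length and library total, which allows genes to be compared with each other. The values resolve into whole reads, with library totals of 10674819 to 11809530. Changes were tested with limma on log2(FPKM + 1), with p-values adjusted over all 19850 genes tested, with 0.05 as the limit for passing. The 7 leaf markers, genes of carbon fixation and light harvesting, summed to 6819 to 8501 FPKM in the mutant, 3966 to 6390 FPKM in OE and 4104 to 5358 FPKM in WT. Most of the higher sum in the mutant came from RCA, the Rubisco activase gene, which averaged 2502 FPKM in the mutant, 170 FPKM in OE and 192 FPKM in WT. Of the 7, 2 were higher in the mutant against WT, RCA among them, and 5 did not pass. Over all tested genes 19.6% were higher. CAB2R, which averaged 409 FPKM in the mutant, 1384 FPKM in OE and 1102 FPKM in WT, was among the 5. In the mutant against OE CAB2R was lower (limma adjusted p = 0.016).

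In the mutant, transcripts of PIL15 and COP1 rose several-fold against WT, and those of PHYB, PHYC and PIL14 fell by 24.6% to 36.4%. CRY1a rose 1.22-fold, but its call was lost when any of several single libraries was left out. PHYA, CRY1b, CRY2 and PIL13 did not pass the test, which does not show that they stayed the same. Of the 10 genes, 3 were higher and 3 lower, where over all tested genes 19.6% were higher and 22.4% lower (42% in either direction). The 3 libraries of the mutant lay outside the range of the 3 WT libraries for 7 of the 10 genes, against 55.4% of all tested genes. With so much of the transcriptome called, these counts are not read as particular to the 10 genes. The median log2 fold change of the 10 genes was -0.02, against -0.01 over all tested genes. OE plants, set against the same WT libraries, gave 0 calls among the 10 genes with limma and 0 with voom on the recovered reads, and 0 had an unadjusted p under 0.05. Over all tested genes 0.232% passed with limma, and 2007 of the 19850 had an unadjusted p under 0.05. For none of the 10 genes did OE and WT separate, against 16.4% of all tested genes. The 95% interval of the log2 fold change in OE ran from -0.46 to 0.70 for PIL13. For the other 9 genes the intervals lay between -0.33 and 0.37. A shift in OE within the interval of its gene is not excluded.

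**Figure D1:**
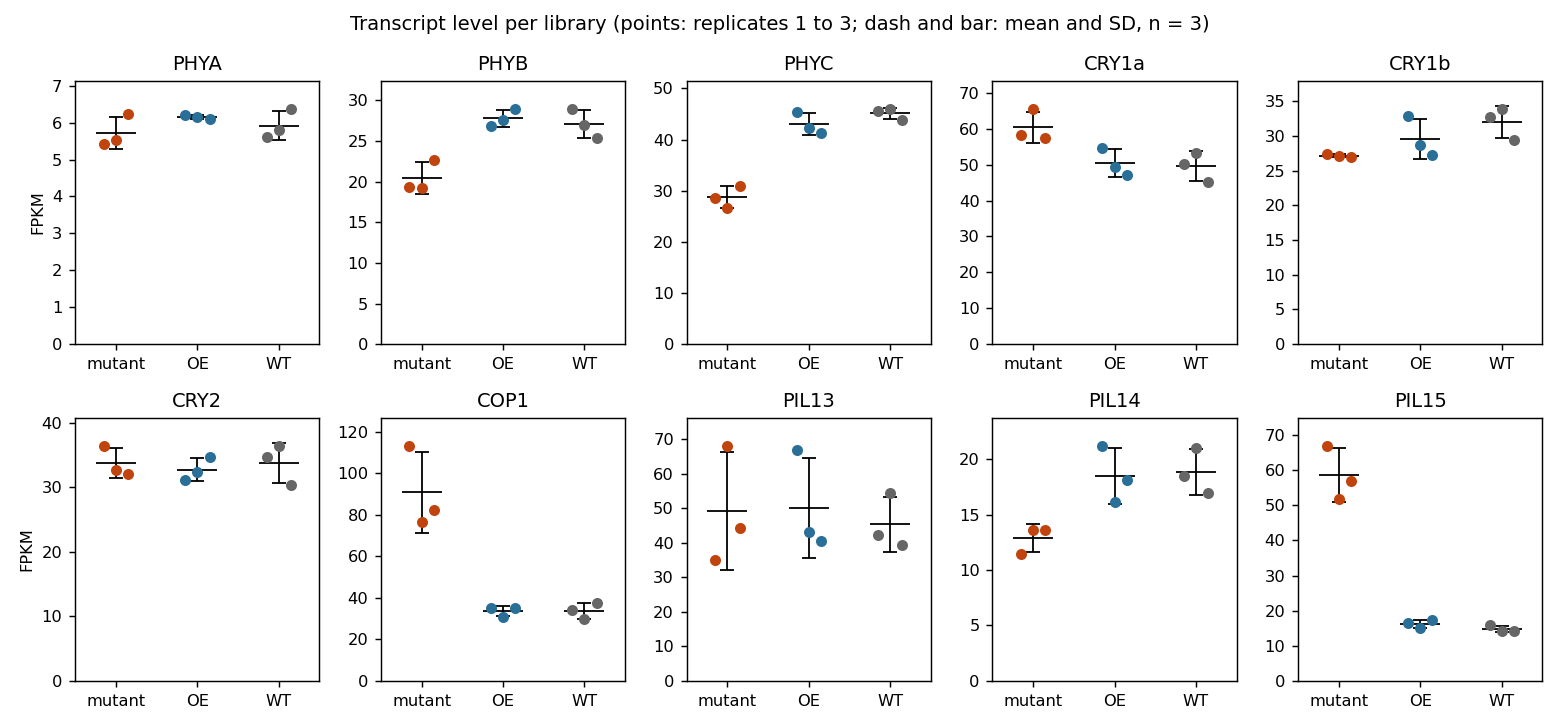
FPKM of the 10 genes (vertical axes, each from 0) in the mutant, OE and WT. Points are single libraries, and the dash and bar give mean and SD (n = 3). COP1 and PIL15 in the mutant lie above every OE and WT library, and PHYB, PHYC and PIL14 below every one.

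PHYA (Os03g0719800, chromosome 3) encodes the phytochrome that accumulates in darkness and responds to far-red light. Its transcript was at 5.43, 5.52 and 6.22 FPKM in the mutant, 6.21, 6.15 and 6.11 FPKM in OE and 5.598, 5.79 and 6.36 FPKM in WT. The 3 ranges overlapped, and PHYA was the lowest of the 10 genes in every genotype. Relative to WT the mutant differed by -0.04 on the log2 scale, with a 95% interval of -0.27 to 0.19 (SE 0.10, limma adjusted p = 0.78). Each library held 230 to 286 PHYA reads, so counting error alone was 6.06% to 6.41% of the level and close to the replicate spread in the mutant and WT.

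PHYB (Os03g0309200, chromosome 3), the light-stable red-light receptor that delays flowering in rice, was at 19.3, 19.3 and 22.7 FPKM in the mutant. It was at 26.9, 27.6 and 28.9 FPKM in OE and at 28.9, 27.0 and 25.4 FPKM in WT. All 3 mutant libraries were below all 6 others, and OE and WT overlapped. The mean was 20.4 ± 1.98 FPKM in the mutant and 27.1 ± 1.77 FPKM in WT (SD, n = 3), 24.6% lower, which is -0.39 on the log2 scale (SE 0.09, limma adjusted p = 0.0069). PHYC (Os03g0752100, chromosome 3) encodes a phytochrome that delays rice flowering in long days, and its transcript fell further. It was at 28.6, 26.6 and 30.9 FPKM in the mutant, 45.4, 42.3 and 41.3 FPKM in OE and 45.6, 45.9 and 43.8 FPKM in WT. The mutant libraries stood well below those of OE and WT, which overlapped. The mean was 28.7 ± 2.14 FPKM in the mutant and 45.1 ± 1.144 FPKM in WT (SD, n = 3), 36.4% lower, or -0.64 on the log2 scale (SE 0.08, limma adjusted p = 0.00022).

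The summed FPKM of the 3 phytochrome genes was 54.8 ± 4.40 in the mutant, 77.0 ± 1.32 in OE and 78.1 ± 2.34 in WT (SD, n = 3). The mutant sums, 51.4 to 59.8 FPKM, lay below those of WT, 75.5 to 80.1 FPKM. PHYC held the largest share in all 9 libraries. PHYA held 10.4 ± 0.30% of the sum in the mutant, 7.998 ± 0.09% in OE and 7.59 ± 0.74% in WT (SD, n = 3), and its share in every mutant library was above that in every other library. The PHYC to PHYB ratio was 1.36 to 1.48 in the mutant, 1.43 to 1.69 in OE and 1.58 to 1.73 in WT. These shares and ratios are descriptions and were not tested.

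Among the cryptochromes, CRY1a (Os02g0573200, chromosome 2) and CRY1b (Os04g0452100, chromosome 4) encode the paired CRY1 blue-light receptors of rice, which limit seedling elongation in blue light. CRY1a was at 58.4, 65.4 and 57.3 FPKM in the mutant, 54.6, 49.4 and 47.1 FPKM in OE and 50.3, 53.3 and 45.2 FPKM in WT. The mutant libraries were the highest 3 of the 9, by a narrow margin over OE replicate 1. The mean was 60.4 ± 4.43 FPKM in the mutant and 49.6 ± 4.06 FPKM in WT (SD, n = 3). On the log2 scale the mutant was 0.28 higher (SE 0.09, limma adjusted p = 0.039). The call was lost without mutant replicate 1 (adjusted p = 0.061) or 2 (0.13), without OE replicate 2 (0.053) and without WT replicate 1 (0.080) or 3 (0.13). It was also lost under quantile normalization (0.077), upper-quartile scaling (0.060) and eBayes without a trend (0.058).

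CRY1b was at 27.5, 27.1 and 27.0 FPKM in the mutant, 32.8, 28.7 and 27.3 FPKM in OE and 32.7, 33.8 and 29.4 FPKM in WT. The mutant libraries lay below those of WT but reached into the OE range. The log2 fold change against WT was -0.22 (95% interval -0.43 to -0.02, SE 0.09, limma adjusted p = 0.073), and it passed without OE replicate 1 (adjusted p = 0.045). CRY2 (Os02g0625000, chromosome 2), whose product promotes flowering in rice, was at 36.4, 32.7 and 32.1 FPKM in the mutant, 31.2, 32.3 and 34.7 FPKM in OE and 34.6, 36.4 and 30.3 FPKM in WT. All 3 ranges overlapped. Its log2 fold change in the mutant was 0.00, with a 95% interval of -0.21 to 0.21 (SE 0.09, limma adjusted p = 1.00). The cryptochrome sum was 121 ± 4.51 FPKM in the mutant, 113 ± 5.19 FPKM in OE and 115 ± 9.48 FPKM in WT (SD, n = 3), and these ranges overlapped too. Within that sum the CRY1a to CRY1b ratio was 2.12 to 2.42 in the mutant, 1.66 to 1.73 in OE and 1.54 to 1.57 in WT. The 3 genotypes did not overlap in this ratio, which was not tested. In the other ratios computed between members, OE and WT overlapped.

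COP1 (Os02g0771100, chromosome 2), whose loss in rice prolongs the juvenile phase, was at 113, 76.6 and 82.5 FPKM in the mutant. It was at 34.9, 30.8 and 35.1 FPKM in OE and at 34.0, 29.8 and 37.4 FPKM in WT. The lowest mutant library was over 2 times the highest of the other 6. The mean was 90.7 ± 19.6 FPKM in the mutant and 33.7 ± 3.83 FPKM in WT (SD, n = 3), 2.69-fold higher, or 1.39 on the log2 scale (SE 0.15, limma adjusted p = 8.4e-05). That value stood at the 95.7th percentile of the log2 fold changes of all tested genes. In OE against WT it was -0.0026 (95% interval -0.33 to 0.33, SE 0.15, limma adjusted p = 1.00). COP1 was the most abundant of the 10 transcripts in the mutant and the fifth in WT.

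Of the PIF-like factors, PIL13 (Os03g0782500, chromosome 3), a factor of internode elongation whose transcript is reduced by drought, was at 35.0, 68.0 and 44.4 FPKM in the mutant. It was at 66.8, 43.1 and 40.5 FPKM in OE and at 42.2, 54.5 and 39.2 FPKM in WT. It had the widest replicate spread of the 10 genes in every genotype, with a coefficient of variation of 34.6% in the mutant, 29.0% in OE and 17.8% in WT, where counting error was 2.95% to 3.10%. The log2 fold change in the mutant was 0.08 with a 95% interval of -0.50 to 0.65 (SE 0.26, limma adjusted p = 0.84). A difference within that interval is not excluded for this gene.

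PIL14 (Os07g0143200, chromosome 7), a factor of seedling elongation in darkness that binds the growth repressor SLR1, was at 11.4, 13.6 and 13.6 FPKM in the mutant. It was at 21.2, 16.2 and 18.1 FPKM in OE and at 18.5, 21.0 and 17.0 FPKM in WT. The mutant libraries were below all others, and OE and WT overlapped. The mean was 12.9 ± 1.26 FPKM in the mutant and 18.8 ± 2.05 FPKM in WT (SD, n = 3), 31.7% lower, or -0.52 on the log2 scale (SE 0.12, limma adjusted p = 0.0089).

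PIL15 (Os01g0286100, chromosome 1), known in rice as a negative regulator of grain size, showed the largest change among the 10 genes. It was at 66.9, 51.9 and 57.0 FPKM in the mutant, 16.4, 15.1 and 17.4 FPKM in OE and 15.8, 14.3 and 14.2 FPKM in WT. The groups stood far apart, while OE overlapped WT. The mean was 58.6 ± 7.64 FPKM in the mutant and 14.8 ± 0.90 FPKM in WT (SD, n = 3), 3.97-fold higher, or 1.91 on the log2 scale (SE 0.11, limma adjusted p = 2.5e-06), at the 97.8th percentile of all tested genes. In OE against WT its log2 fold change was 0.13 (95% interval -0.11 to 0.37, SE 0.11, limma adjusted p = 0.71).

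PIL15 and PIL14 thus changed in opposite directions, while PIL13 did not pass. PIL15 made up 49.2 ± 10.1% of their summed FPKM in the mutant, 19.6 ± 3.63% in OE and 18.9 ± 2.59% in WT (SD, n = 3). PIL14 made up 10.7 ± 1.00% in the mutant, 21.97 ± 1.80% in OE and 23.9 ± 0.42% in WT. The PIL15 to PIL14 ratio was 3.83 to 5.87 in the mutant, against 0.77 to 0.96 in OE and 0.68 to 0.86 in WT. PIL13 held the largest share in all 6 libraries of OE and WT, and in the mutant it did so in replicate 2 alone.

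**Figure D2:**
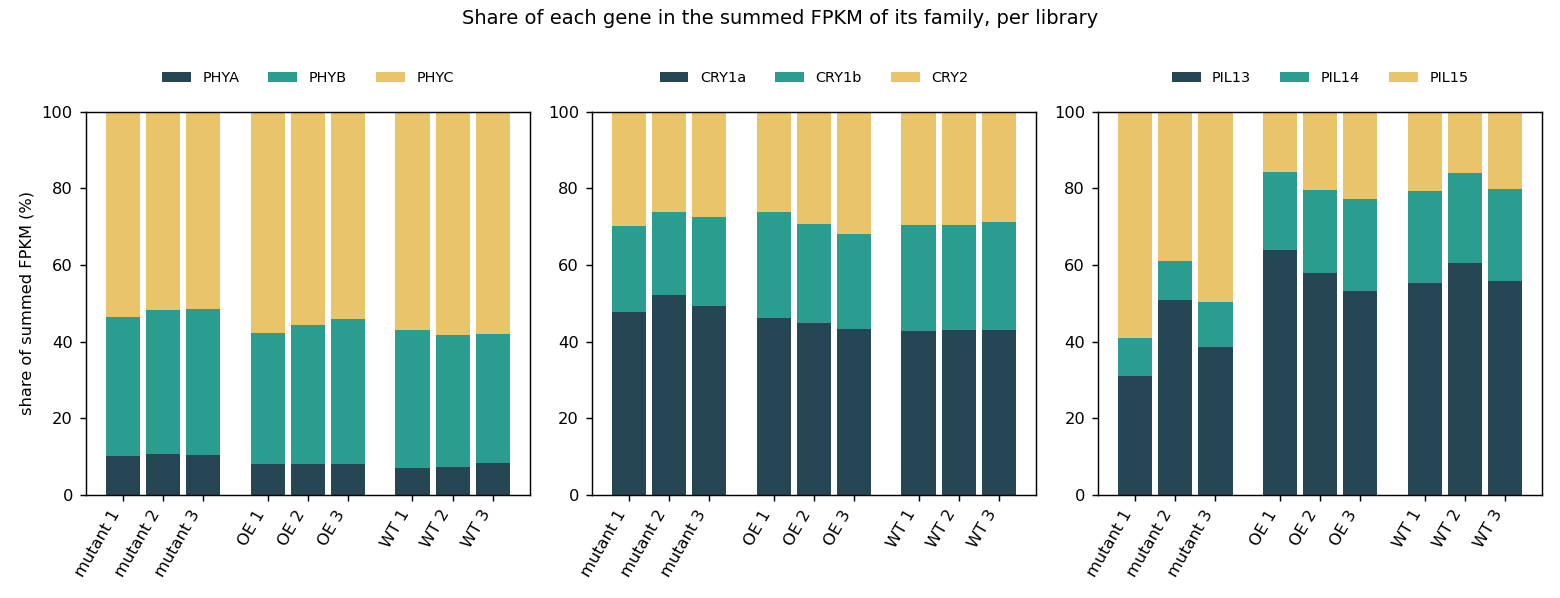
Share of each gene in a summed FPKM (vertical axis, %) for each of the 9 libraries, grouped as mutant, OE and WT. The sums are those of the phytochrome genes, of the cryptochrome genes and of PIL13, PIL14 and PIL15. Other PIF-like genes were left out of the last sum. PIL15 holds 38.9% to 59.0% of it in the mutant, against 15.7% to 22.9% in OE and 15.9% to 20.7% in WT.

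**Figure D3:**
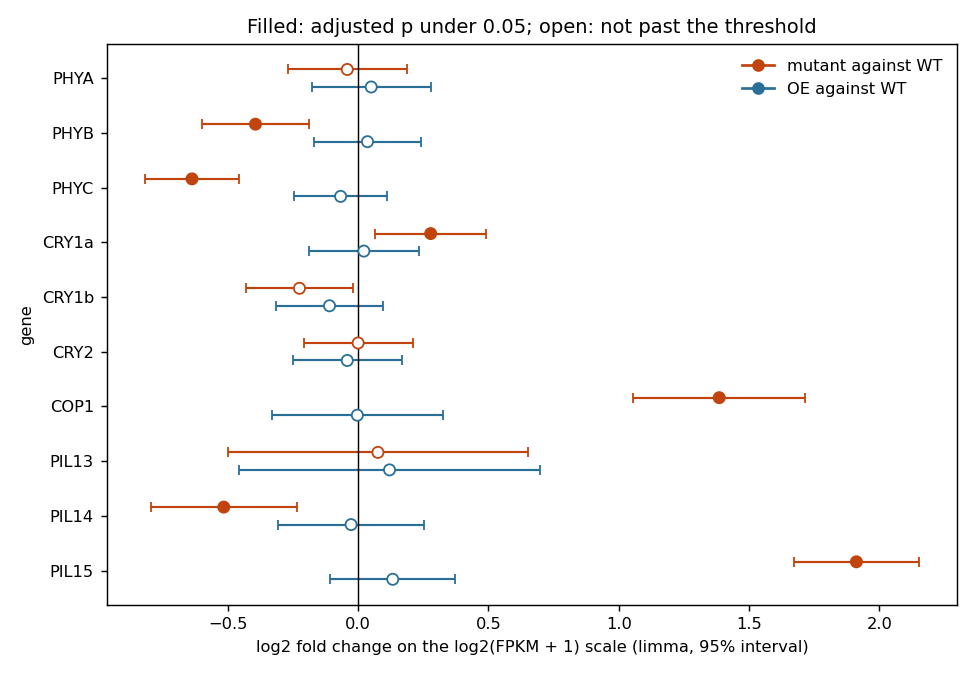
Log2 fold changes of the 10 genes on the log2(FPKM + 1) scale (horizontal axis) with limma 95% intervals, mutant against WT above OE against WT for each gene. Filled points passed at an adjusted p under 0.05: 6 genes in the mutant and none in OE.

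Between the mutant and OE, a comparison that uses the same mutant libraries, 2 of the 10 genes were higher and 3 lower, against 20.5% and 22.9% of all tested genes (43.4% in either direction). Groups did not overlap for 6 of the 10, against 52.5% of all tested genes. The log2 fold changes were 1.78 for PIL15 (SE 0.11, limma adjusted p = 3.6e-06), 1.39 for COP1, -0.43 for PHYB, -0.57 for PHYC and -0.49 for PIL14. CRY1a did not pass here (0.26, SE 0.09, limma adjusted p = 0.052), although it passed with the replicate number as a block (adjusted p = 0.039) and without OE replicate 1 (0.034). Comparing mutant and OE tests directly whether levels differ between these 2 sets of libraries, and for PIL15, COP1, PHYB, PHYC and PIL14 they did.

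The order of the levels also differed between genotypes. In WT it ran from CRY1a at 49.6 FPKM over PIL13 (45.3), PHYC (45.1), CRY2 (33.8), COP1 (33.7), CRY1b (32.0), PHYB (27.1), PIL14 (18.8) and PIL15 (14.8) to PHYA at 5.92 FPKM. Among these, CRY1a overlapped PIL13, PIL13 overlapped PHYC, CRY2 overlapped COP1 and COP1 overlapped CRY1b in their libraries, while the other neighbours stood apart. In the mutant COP1 led, followed by CRY1a, PIL15 and PIL13, which overlapped each other in turn, and PHYC stood sixth, against the third place in WT. Likeness of profiles was measured as the root mean square difference of log2(FPKM + 1) over the 9 libraries, each gene centred on its own mean. COP1 and PIL15 were each other's nearest (0.25), and PHYB and PHYC were too (0.12), with PIL14 nearest to PHYC (0.13). The farthest pair was PHYC and PIL15 (1.16). PHYA, CRY1b and CRY2 were nearest to one another (0.14), as genes that varied little, with PHYA at only 0.07 around its own mean.

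Other genes of the pathway came from a list of 22 genes of light signalling: further photoreceptors, chromophore synthesis, other PIF-like genes, genes around COP1, a DELLA protein and light-dependent greening. All 22 were tested. In the mutant against WT 8 were higher, 5 lower and 9 did not pass, where 19.6% and 22.4% of all tested genes were higher and lower. The median log2 fold change of the list was 0.08, against -0.01 over all tested genes. In OE against WT limma gave 0 calls among the 22, with 1 (SE5) at an unadjusted p under 0.05. Of all 19850 genes tested, 0.232% passed there and 2007 had an unadjusted p under 0.05. Of the 22, 8 have a name in RefSeq at the same relative position, and these carry the names here. SE5 (Os06g0603000), the haem oxygenase that makes the precursor of the phytochrome chromophore, was at 294, 272 and 249 FPKM in the mutant, 90.0, 87.5 and 91.6 FPKM in OE and 90.5, 125 and 143 FPKM in WT. Its transcript was thus higher in all 3 mutant libraries, in which PHYB and PHYC were lower, by 1.201 on the log2 scale (SE 0.15, limma adjusted p = 0.00022). PHOT2 (Os04g0304200), a blue-light receptor of chloroplast movement, rose by 0.47 (SE 0.10, limma adjusted p = 0.0035) on the log2 scale.

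SLR1 (Os03g0707600), the DELLA growth repressor that binds PIL14, did not pass (log2 fold change 0.06, SE 0.13, limma adjusted p = 0.74). DDB1 (Os05g0592400, listed as UV-DDB1), a subunit of the ubiquitin ligases with which COP1 works, was also not past the threshold (0.04, adjusted p = 0.75). Among the greening genes, PORA (Os04g0678700), a light-dependent protochlorophyllide reductase, was at 0.66, 4.54 and 1.04 FPKM in the mutant, 99.8, 72.3 and 43.6 FPKM in OE and 71.6, 104 and 24.1 FPKM in WT. It fell by 4.44 on the log2 scale (SE 0.58, limma adjusted p = 0.0003). Over the alternatives the change ranged from -5.24 to -3.18, and it was -5.04 without WT replicate 3. PORB (Os10g0496900), a gene of the same reaction, was at -0.14 (SE 0.16, limma adjusted p = 0.52). GLK2 (Os01g0239000), a transcription factor of chloroplast development, rose by 0.56 (SE 0.14, adjusted p = 0.0096), and its relative GLK1 (Os06g0348800) was at -0.13 (SE 0.29, adjusted p = 0.75). Of the 14 others, Os06g0601500 rose by 2.18 on the log2 scale (SE 0.28, limma adjusted p = 0.00025). Os11g0547000 fell by 3.24 (SE 0.10, limma adjusted p = 2.7e-07). Both were picked after their values were seen. Others of the 14 passed too, some higher and some lower, and the rest did not pass.

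**Figure D4:**
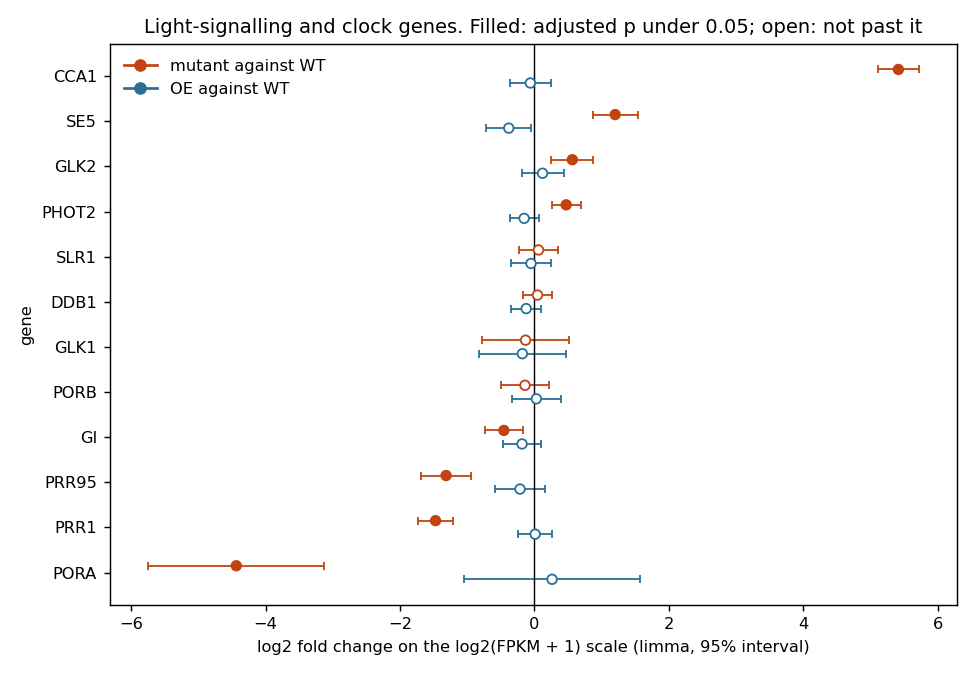
Log2 fold changes on the log2(FPKM + 1) scale (horizontal axis) with limma 95% intervals for the 8 named genes of the light-signalling list and 4 clock genes, mutant against WT above OE against WT. Filled points passed at an adjusted p under 0.05. CCA1 at 5.42 and PORA at -4.44 mark the ends in the mutant, and no gene is filled for OE.

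Some other measures also moved with the mutant group, and others did not. Clock genes, whose transcripts follow the time of day, differed strongly. CCA1 (Os08g0157600), which peaks around dawn, was at 464, 381 and 352 FPKM in the mutant, 8.37, 8.40 and 7.06 FPKM in OE and 9.01, 6.89 and 9.204 FPKM in WT. PRR1 (Os02g0618200), PRR95 (Os09g0532400) and GI (Os01g0182600), which peak later in the day, fell by 1.47, 1.32 and 0.46 on the log2 scale (limma adjusted p = 1.4e-05, 0.00022 and 0.016). The call of GI was lost without mutant replicate 2 (adjusted p = 0.061) or WT replicate 1 (0.052). The 11 floral markers summed to 40.8 to 44.9 FPKM in the mutant, 10.2 to 16.1 FPKM in OE and 15.0 to 17.5 FPKM in WT. Of these, 2 (MADS8 and MADS13) were at 0 in all libraries, and only MADS1 and MADS16 were high enough to test. Most of the floral sum came from MADS16, which averaged 33.0 FPKM in the mutant, 8.28 FPKM in OE and 10.4 FPKM in WT. Of 3 root markers LSI2 was at 0 throughout, and their sum, 40.0 to 56.3 FPKM in the mutant, 5.48 to 10.8 FPKM in OE and 7.83 to 13.5 FPKM in WT, came almost wholly from LSI1. The 2 endosperm markers summed to 6.82 to 8.51 FPKM in the mutant, 7.65 to 10.5 FPKM in OE and 7.28 to 10.7 FPKM in WT, and these ranges overlapped. The part of the hour of harvest and of tissue makeup in the changes of PIL15, COP1, PHYB, PHYC and PIL14 was not tested. In whole leaves, fewer cells of a type and less RNA per cell cannot be told apart.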

How the data were processed

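The authors deposited FPKM per gene for 9 leaf libraries, which were built with an Illumina TruSeq kit according to the labels' protocols. Cuffdiff, Bowtie 0.12.2 and, as genome build, IRGSP-1.0 appear in the submitters' processing notes, with no step given for each. A further 1 per-sample column matched no sample and was not used. Whole reads were recovered from the FPKM of all 30062 genes that had any, within a relative tolerance of 3e-07, and the library totals are those at which gene lengths come out whole. No pair of replicates was as close as counting noise alone would make it (chi-square per gene 6.51 to 17.7).

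Limma 3.58.1 in R 4.3.3 (lmFit, contrasts.fit, eBayes with trend) was fitted on log2(FPKM + 1) with all 9 libraries and no covariate, for genes whose mean over the libraries reached 1 FPKM. This scale understates the change of low genes. All tests were two-sided, and p-values were adjusted (Benjamini-Hochberg) over the 19850 genes of each contrast, and intervals are at 95%. The script was tested on simulated data. Alternatives were pseudocounts, filters, scalings, fits of only the 2 groups, eBayes without trend, a replicate block, voom on the recovered reads, and leaving out each library.

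The members and gene lists were chosen with earlier results of these data known. The genes named are the 10 members, list genes with a RefSeq name and 2 further identifiers picked after their values were seen. Of the members, 3 (PHYA, PHYB and PHYC) have an alias in RefSeq (assembly ASM3414082v1) on the same chromosome within 0.015 of the same relative rank among coding genes. The other members carry the names under which they were selected. No coordinates of that assembly were used. The gene altered in the mutant and OE is not reported here, so its level is not given as a check of the labels.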

Additional observations from a re-analysis of the deposited data

How the results depend on the processing

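In the mutant against WT, PIL15, COP1, PHYB, PHYC and PIL14 kept their direction and stayed past the threshold under all 19 alternatives. Their log2 fold changes over these ranged from 1.68 to 1.99 for PIL15, 1.22 to 1.496 for COP1, -0.47 to -0.34 for PHYB, -0.69 to -0.57 for PHYC and -0.58 to -0.41 for PIL14. The number of members past the threshold was 5 to 7 against WT and 5 to 6 against OE when single libraries were left out, and 0 in OE against WT under every alternative. The count of all genes called was 6605 to 8554 without single libraries in the mutant against WT, and in OE against WT it was 27 to 98 against 46, with 27 on leaving out WT replicate 1 and 98 on leaving out OE replicate 1. It was 29 when only genes averaging 5 FPKM or more were tested. The cause of the other shifts was not tested.

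Values near 0 changed sign without passing in either case. In the mutant against WT, PHYA was at 0.0329 under quantile normalization, and CRY2 at -0.0188 under quantile normalization and -0.0163 under upper-quartile scaling. Leaving out single libraries gave -0.0939 to 0.0044 for PHYA, -0.0732 to 0.0545 for CRY2, -0.18 to 0.29 for PIL13, -0.0504 to 0.116 for DDB1, -0.356 to 0.0849 for GLK1 and -0.0171 to 0.137 for SLR1. In OE against WT it gave -0.0086 to 0.0822 for PHYB, -0.0412 to 0.0743 for CRY1a, -0.115 to 0.0127 for CRY2, -0.0866 to 0.0735 for COP1, -0.101 to 0.258 for PIL13 and -0.124 to 0.0615 for PIL14. In the mutant against OE it gave -0.0125 to 0.0835 for CRY2 and -0.30 to 0.18 for PIL13.

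The labels do not say whether the replicate numbers pair the samples. Deviations of same-numbered libraries from their group means correlated at -0.0681 to 0.211. Correlations this weak do not exclude pairing. With the replicate number as a block, 8318, 38 and 8543 genes were called in the mutant against WT, OE against WT and mutant against OE, and CRY1a in the mutant against OE passed (0.26). For PHYA, with 230 to 286 reads per library, counting error was close to the replicate spread in the mutant and WT.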

Other observations

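PIL13, the member that varied most between replicates, had its highest library in replicate 2 of the mutant, replicate 1 of OE and replicate 2 of WT. GLK1, PORA, PORB and CAB2R, a chlorophyll a/b-binding protein gene among the leaf markers, were highest in the same 3 libraries, as were CRY1a and, in all, 4.57% of the 19850 genes tested. GLK1 was at 20.2, 33.5 and 31.3 FPKM in the mutant, 39.6, 21.96 and 21.99 FPKM in OE and 31.2, 40.8 and 22.1 FPKM in WT. CAB2R was at 290, 623 and 313 FPKM in the mutant, 1951, 1280 and 921 FPKM in OE and 1049, 1794 and 463 FPKM in WT. For PIL13, GLK1, PORA, PORB and CAB2R the highest replicate of a genotype exceeded the lowest by factors that ranged from 1.124 for PORB in WT to 6.82 for PORA in the mutant. These genes were picked after their values were seen, and no test was made.

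COP1 and PIL15 were both highest in replicate 1 of the mutant, at 113 and 66.9 FPKM, and CCA1 was highest there too, at 464 FPKM. COP1 and PIL15 were both lowest in replicate 2 of the mutant, and CCA1 was lowest in replicate 3. The 3 genes did not share a highest library in the other genotypes. In OE it was replicate 3 for COP1 and PIL15 and replicate 2 for CCA1. In WT it was replicate 3 for COP1 and CCA1 and replicate 1 for PIL15. CRY1b and CRY2 were also highest in replicate 1 of the mutant, as were SE5, PHOT2, PRR95, GI and RCA. GLK2, PRR1, PORA and PORB were not. The share of all tested genes highest in that library was not computed, and no test was made.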
